A study of Mus musculus with 12 samples.

Results

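The genes described here encode 49 ribosome biogenesis factors, chosen by name from textbook functions in ribosome production. The choice was made with earlier results of these data known, so counts over these genes describe the list and are no independent test. Of the 49 factors, 47 had a probe set on the array that carries a single gene symbol, out of 22180 genes with such a probe set, and all 47 were bright enough to be tested among 15348 genes. Fbl and Npm3 were not analysed here. Where a gene had several probe sets, the brightest was used. Values are log2 expression levels, so a difference of -1 is a halving, and levels of different genes were not set against each other.

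RNA was measured on 12 Affymetrix arrays, in 4 groups of 3. The cells were LSK cells, bone marrow cells without lineage markers that carry SCA1 and cKIT, a fraction rich in blood stem and progenitor cells. All donors were mice older than 20 months on a C57BL/6 background, either Nipa WT or Nipa KO, where NIPA is the product of Zc3hc1, an F-box-like protein of a ubiquitin ligase. The sources used here do not give how the gene was disrupted. Each sample merged the sorted cells of 3 mice, so a value describes a pool and not an animal. Every group was first cultured for 30 min with IL-3, IL-6, SCF and fetal calf serum. The WT and KO cells were then either left untreated (0 Gy) or irradiated with 4 Gy, and all were harvested after 3 h of culture. Whether 1 pool was divided between the doses is not stated in the labels, so p-values describe the spread between these arrays, which may in part be technical. In such bulk samples, fewer cells of a type and less RNA per cell cannot be told apart.

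Ribosomes are built in the nucleolus. RNA polymerase I transcribes a long precursor RNA, small nucleolar RNA-protein particles (snoRNPs) guide its chemical modification, and the small subunit processome and the large subunit assembly factors fold, cut and export the particles that become the 40S and 60S subunits. Many of these genes are known targets of the transcription factor MYC, which binds the E-box CACGTG. In blood stem cells, protein synthesis is kept low and is tightly controlled, and ribosome assembly is linked to p53 through free ribosomal proteins that bind MDM2.

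The promoter sequences are shown first, since the E-box is the letter pattern by which MYC-type factors are known to bind. Windows from 250 bases before to 50 bases after the start came from RefSeq (build GRCm38.p6) and were found for 42 of the 47 genes. The E-box CACGTG, which reads the same on both strands, was in the window of 8 of those 42 genes (19.0%), against 9.19% of 16990 genes of the array with a window and 8.09% of 27025 genes in all. It was in 5 of 24 genes that fell after irradiation (20.8%) and in 3 of the 18 other genes (16.7%). The 6 genes below hold it and passed the test for irradiation described further on, 5 of them lower and Utp20 higher. The E-box is in capitals, and each stretch is written 5′ to 3′ on the gene's own strand.
Wdr43: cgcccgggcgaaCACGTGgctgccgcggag
Utp20: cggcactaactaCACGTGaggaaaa
Nop2: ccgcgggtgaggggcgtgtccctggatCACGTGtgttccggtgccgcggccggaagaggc
Utp18: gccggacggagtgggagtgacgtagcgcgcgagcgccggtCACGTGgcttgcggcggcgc
Imp4: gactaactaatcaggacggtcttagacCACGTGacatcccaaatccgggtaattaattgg
Mybbp1a: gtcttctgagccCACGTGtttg

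On GRCm38.p6 the stretch of Wdr43 lies at chr17:71616220-71616249 on the plus strand. That of Utp20 lies at chr10:88826765-88826789 on the minus strand. Nop2 is at chr6:125131796-125131855 on the plus strand and Utp18 at chr11:93885767-93885826 on the minus strand. Imp4 is at chr1:34439681-34439740 and Mybbp1a at chr11:72441355-72441376, both on the plus strand. Counted from the start, with -1 as the base just before it, the first base of the E-box is at -121 in Imp4, -60 in Nop2 and -20 in Utp18. It lies after the start at 18 in Wdr43, 38 in Utp20 and 41 in Mybbp1a. The same 6 letters lie on either side of the start, in 5 genes that fell and in Utp20, which rose. The part of the E-box in these differences was not tested. The ETS-type pattern CCGGAAG, searched on both strands, was in 15 of the 42 genes (35.7%, against 12.7% of genes of the array). The YY1-type pattern AAGATGG was in 2 genes (4.76%, against 7.32%). A match is a description of the letters and not of binding.

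As a check of the labels, Zc3hc1 read 7.67 to 8.47 in the 6 WT arrays and 5.61 to 5.82 in the 6 KO arrays, with no overlap. Arrays of the same group correlated at 0.960 to 0.986 over the genes tested, and arrays of different groups at 0.940 to 0.988. Of the LSK markers, Kit read 9.97 to 11.32 and Cd34 11.53 to 12.30, and Ly6a was not analysed here. B cell markers stood apart in untreated KO array 2 and irradiated KO array 3, with a mean over 7 genes of 7.57 and 7.76 against 5.68 to 6.72 in the other arrays. Markers of granulocytes and monocytes (Elane, Mpo, Prtn3, Ctsg, S100a8, Csf1r), of mast cells and basophils (Mcpt8, Cpa3, Prss34) and of B cells (Cd79a, Cd79b, Ebf1, Igll1) were above the brightness limit in all 12 arrays. Ms4a1 (B cells), Ly6g (granulocytes), Fcer1a (mast cells), and Cd8a and Ncr1 (T and NK cells) were under it in every array.

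Most changes in the ribosome biogenesis factors after irradiation were falls. In the average of the WT and KO irradiation contrasts, 26 of 47 genes fell and 1, Utp20, rose (limma, Benjamini-Hochberg adjusted p under 0.05 over all genes tested). The share that fell was 55.3%. Of all genes tested, 16.5% were called, of which those that fell made 9.6% and those that rose 6.9%. With array medians subtracted these shares were 7.78% and 9.28%, and 23 of the 47 genes fell and 1 rose. The median difference of the 47 genes was -0.40, against 0.00 over all genes tested. Of the 47 differences 43 were negative, as were 7832 of the 15348 over all genes tested. The changes were moderate: the genes that passed the test and fell lay between 1.23-fold and 1.79-fold lower. In 13 genes all 6 irradiated arrays were below all 6 untreated arrays, which was so for 4.68% of genes tested. These were Polr1b, Polr1e, Nop56, Gnl3, Mybbp1a, Utp18, Wdr43, Wdr75, Rrp12, Bop1, Nop16, Noc2l and Rrp1b.

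**Figure D1:**
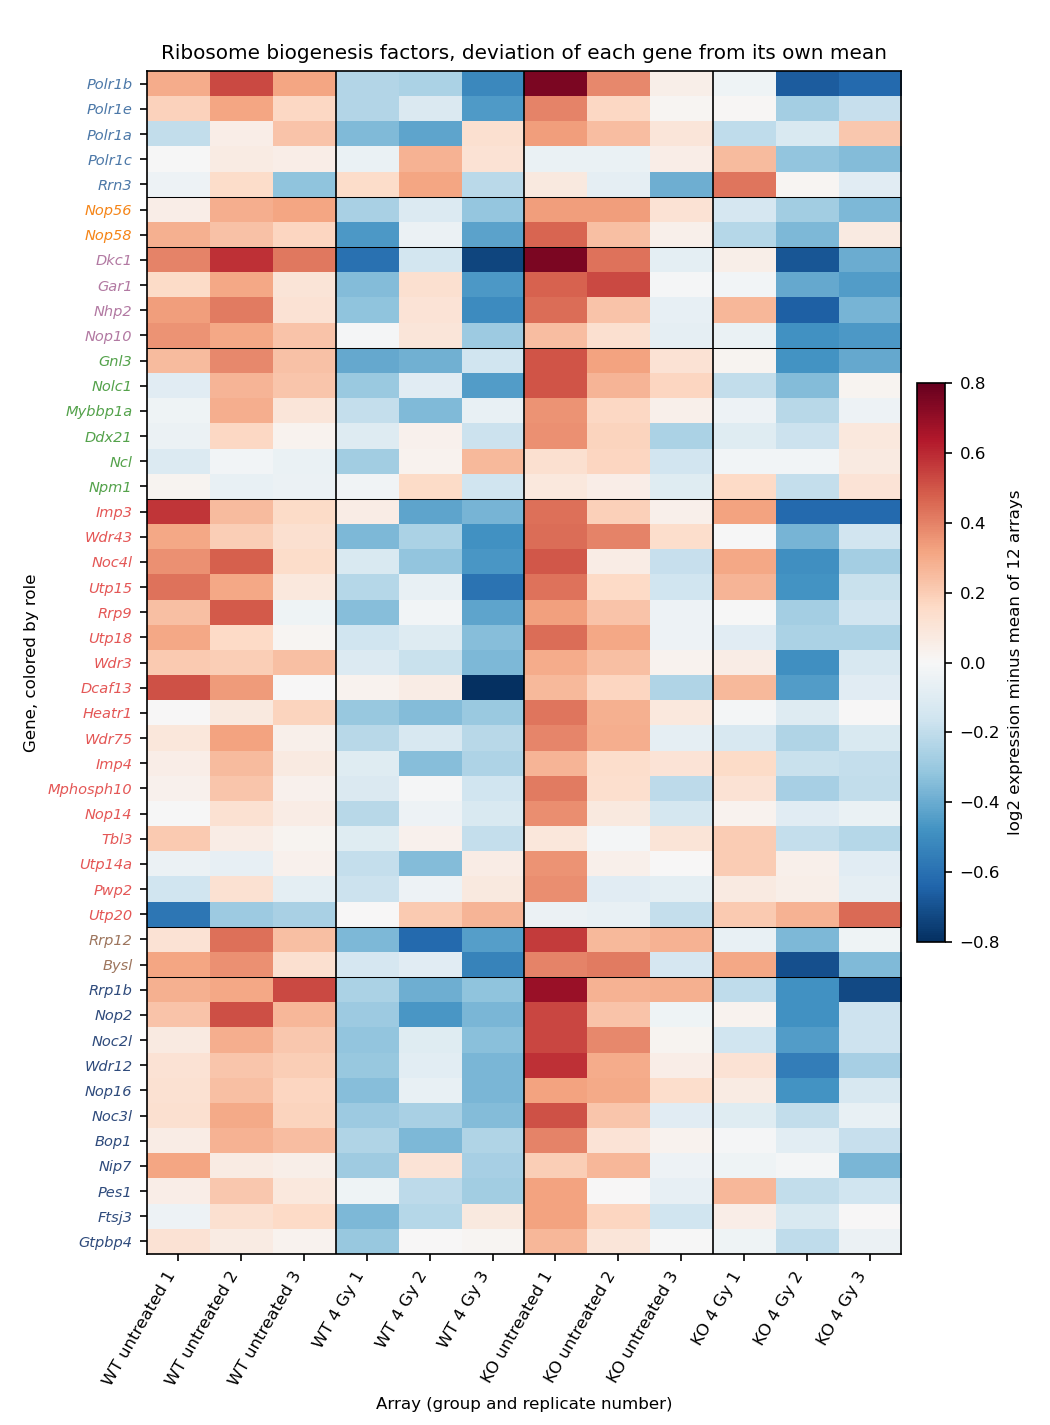
Level of each of the 47 genes in each of the 12 arrays, as log2 expression minus the gene's own mean over the arrays (blue lower, red higher). Rows are ordered by role and columns by group. Most rows are lower in the irradiated arrays of both genotypes, and Utp20 is higher.

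The mean log2 level of the 47 genes was 9.16, 9.26 and 9.15 in the untreated WT arrays and 8.81, 8.90 and 8.75 in the irradiated WT arrays. In KO it was 9.40, 9.22 and 9.0 untreated and 9.08, 8.73 and 8.85 irradiated. The WT groups did not overlap. The KO groups did, because irradiated KO array 1 lay above untreated KO array 3, and the arrays numbered 1 were the highest of both KO groups. The KO groups were also wider, with an SD of 0.20 untreated and 0.18 irradiated, against 0.06 and 0.08 in WT (n = 3 each).

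Most erythroid markers moved in the same direction. The mean level of the 8 measured erythroid markers was 6.96 to 7.54 in the untreated arrays and 6.35 to 6.66 in the irradiated arrays. In the average contrast 6 of the 8 fell, among them Car1 (-2.70) and Ermap (-1.09), where 9.6% of all genes tested fell. Car1, Ermap, Klf1 and Gata1 reached under the brightness limit of 5.29, with lowest values of 5.26, 5.25, 5.27 and 5.13. Of the 8 erythroid differences, 7 were negative and 1 was positive (0.34), which did not pass the test. The haemoglobin genes of that list were not analysed here. Of the 10 LSK markers tested, Flt3 (-1.13) and Meis1 (-0.58) fell. The part of either marker list in the fall of the biogenesis factors was not tested.

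**Figure D2:**
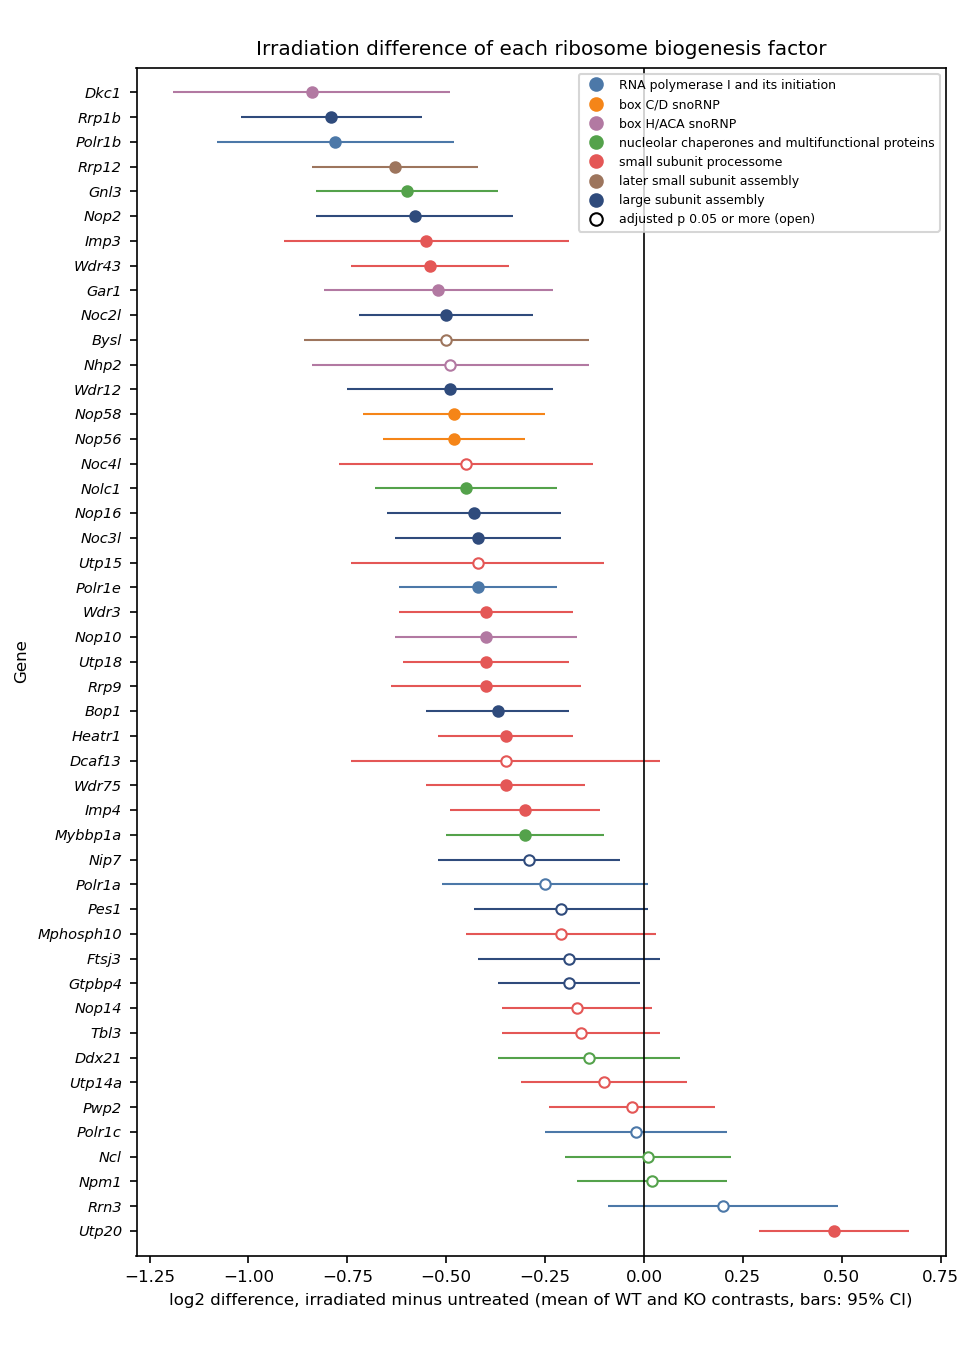
Irradiation difference of each gene (log2, average of the WT and KO contrasts, bars for the 95% confidence interval, colours for roles). Filled points passed the test at an adjusted p of 0.05. Dkc1 lies lowest at -0.84, and Utp20 at 0.48 is the 1 filled point above 0.

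Counts by role in the average contrast follow. Over all 15348 genes tested, 9.6% fell, 6.9% rose and 7832 differences were negative. The first role is transcription of the precursor RNA. Of 5 genes of RNA polymerase I and its initiation, 2 fell, with a median of -0.25. Polr1b encodes the second largest subunit of the enzyme. It read 8.55, 8.78 and 8.57 in untreated WT and 8.02, 8.0 and 7.74 in irradiated WT, and 9.01, 8.64 and 8.30 in untreated KO and 8.22, 7.59 and 7.63 in irradiated KO. Every irradiated array was below every untreated array, and the average difference was -0.78 (SE 0.14, limma adjusted p 0.0026). Polr1e, a subunit that helps the enzyme to engage the promoter, read 7.0, 7.13 and 6.98 in untreated WT, 6.58, 6.70 and 6.36 in irradiated WT, 7.21, 6.98 and 6.83 in untreated KO and 6.82, 6.54 and 6.63 in irradiated KO. Its 6 irradiated arrays also lay below the 6 untreated arrays, with irradiated KO array 1 just under untreated KO array 3, and the average difference was -0.42 (SE 0.09, adjusted p 0.0091).

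The other genes of this role did not pass. Polr1a, the largest subunit, differed by -0.25 (SE 0.12, limma adjusted p 0.18) and Polr1c, which RNA polymerases I and III share, by -0.02 (SE 0.11). Rrn3, the initiation factor that brings the polymerase to the promoter and that growth signals regulate, had a difference of 0.20 (SE 0.13, adjusted p 0.34), positive in both genotypes.

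Nop56 and Nop58, core proteins of the box C/D snoRNPs, which guide ribose methylation, both fell. Nop56 read 10.97, 11.21 and 11.23 in untreated WT, 10.66, 10.81 and 10.61 in irradiated WT, 11.25, 11.25 and 11.03 in untreated KO and 10.78, 10.64 and 10.56 in irradiated KO. Nop58 read 10.16, 10.11 and 10.05, then 9.42, 9.83 and 9.45 in WT, and 10.34, 10.12 and 9.92, then 9.65, 9.52 and 9.95 in KO. The groups did not overlap in either genotype for Nop56. For Nop58 they overlapped in KO, where irradiated array 3 lay above untreated array 3. The average difference was -0.48 for both, with an SE of 0.08 for Nop56 (limma adjusted p 0.0020) and 0.11 for Nop58 (adjusted p 0.0095). Nop56 has further probe sets, and these differed: one read -0.90 in WT and -0.98 in KO, and a dim one 0.05 and -0.16.

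All 4 proteins of the box H/ACA snoRNPs, which guide pseudouridylation, had negative differences, with a median of -0.51, and 3 fell. Dkc1 encodes dyskerin, the pseudouridine synthase, which is also part of telomerase. It read 9.33, 9.52 and 9.36 in untreated WT, 8.34, 8.79 and 8.20 in irradiated WT, 9.69, 9.37 and 8.86 in untreated KO and 8.98, 8.25 and 8.54 in irradiated KO. The WT groups were well apart, and in KO irradiated array 1 lay above untreated array 3. Dkc1 was 1.79-fold lower on average (log2 -0.84, SE 0.16, limma adjusted p 0.0040), the most negative difference of the 47 genes. Gar1 (-0.52) and Nop10 (-0.40) fell too. The call of Gar1 was lost without untreated KO array 2 (adjusted p 0.050), and that of Nop10 without untreated KO array 1 or irradiated KO array 2 (0.052 each). Nhp2, the fourth protein, differed by -0.49 and missed the threshold (adjusted p 0.054).

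Among 6 nucleolar chaperones and multifunctional proteins, 3 fell, and the abundant nucleolar proteins did not pass the test. Gnl3 encodes nucleostemin, a nucleolar GTPase known from stem cells. It read 9.84, 9.97 and 9.82 in untreated WT, 9.18, 9.20 and 9.43 in irradiated WT, 10.09, 9.91 and 9.70 in untreated KO and 9.61, 9.11 and 9.18 in irradiated KO. All irradiated arrays were below all untreated arrays, and the difference was -0.60 in both genotypes (average SE 0.11, limma adjusted p 0.0022). Nolc1, a snoRNP chaperone that shuttles between nucleolus and cytoplasm, read 8.34, 8.70 and 8.65 in untreated WT, 8.13, 8.34 and 7.98 in irradiated WT, 8.93, 8.70 and 8.60 in untreated KO and 8.23, 8.08 and 8.45 in irradiated KO. Within each genotype its groups did not overlap, and the average difference was -0.45 (SE 0.10, adjusted p 0.011). Mybbp1a, a nucleolar protein that binds MYB and also p53, fell by 0.30 on the log2 scale (adjusted p 0.037). Its call was lost when array medians were subtracted (adjusted p 0.079), under cyclic loess (0.064), and without any array (0.055 to 0.095) other than untreated WT 1, irradiated WT 3, untreated KO 3 and irradiated KO 1.

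Npm1, nucleophosmin, read 12.74, 12.66 and 12.67 in untreated WT, 12.69, 12.87 and 12.56 in irradiated WT, 12.80, 12.77 and 12.62 in untreated KO and 12.88, 12.53 and 12.83 in irradiated KO. The groups overlapped, and the average difference was 0.02 with a 95% confidence interval of ± 0.19. A dimmer Npm1 probe set differed by -0.34 in WT and -0.31 in KO, so the 2 probe sets disagree. Ncl, nucleolin, differed by 0.01 (SE 0.10), and Ddx21, an RNA helicase, by -0.14 (SE 0.11).

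**Figure D3:**
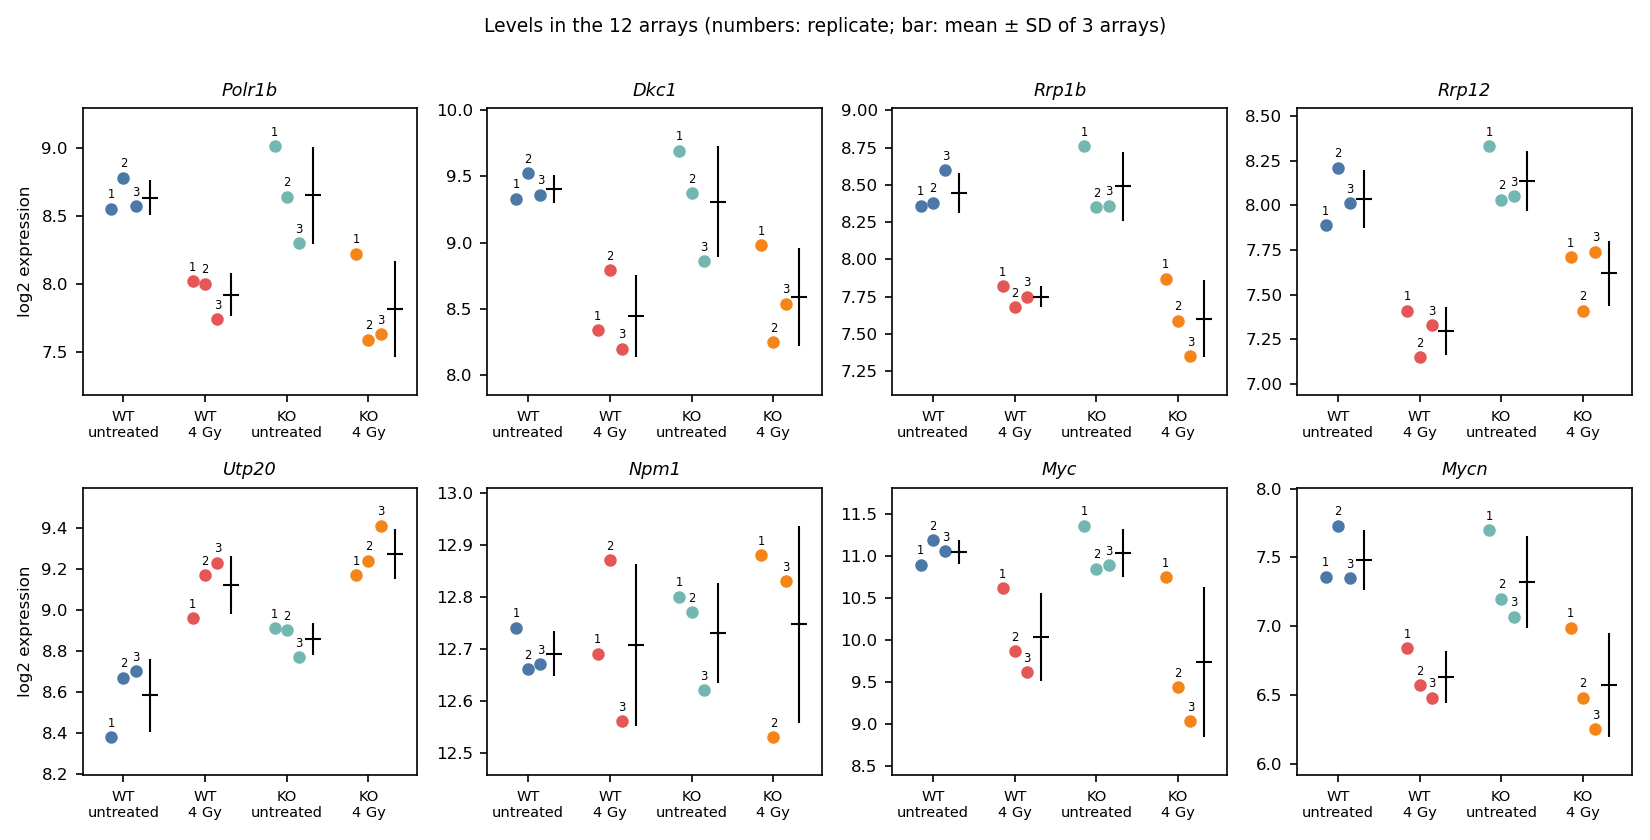
Log2 expression of 6 ribosome biogenesis factors and of Myc and Mycn in each array (points numbered by replicate), with the mean and SD of each group of 3 arrays. Polr1b, Rrp1b and Rrp12 are lower in all irradiated arrays than in any untreated array, Utp20 is higher in all of them, and the Npm1 groups overlap.

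The small subunit processome, the large particle that assembles on the precursor RNA as it is made, gave 8 genes that fell and 1 that rose out of 17, with a median of -0.35. Its subcomplexes are known, and their measured members are given in turn. Of the UtpA proteins among them, which bind the start of the precursor first, Wdr43, Heatr1 and Wdr75 fell. Utp15 did not pass (-0.42, SE 0.15, limma adjusted p 0.073). Wdr43 read 9.58, 9.47 and 9.40 in untreated WT, 8.91, 9.02 and 8.79 in irradiated WT, 9.72, 9.67 and 9.41 in untreated KO and 9.27, 8.90 and 9.12 in irradiated KO. Its irradiated arrays all lay below its untreated arrays, and it fell 1.45-fold (log2 -0.54, SE 0.09, adjusted p 0.0016). Heatr1 read 9.06, 9.13 and 9.23 in untreated WT, 8.75, 8.71 and 8.76 in irradiated WT, 9.48, 9.34 and 9.14 in untreated KO and 9.04, 8.95 and 9.06 in irradiated KO. Its groups were apart within each genotype, with an average difference of -0.35 (SE 0.08, adjusted p 0.0081). Wdr75 differed by -0.35, and its call was lost without untreated WT array 2, untreated KO array 1 or untreated KO array 2 (adjusted p 0.052 to 0.054).

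Of the measured UtpB proteins, a scaffold built of WD-repeat proteins, Utp18 and Wdr3 fell by 0.40 each on the log2 scale (SE 0.10, limma adjusted p 0.015 each). Tbl3 (-0.16, SE 0.09) and Pwp2 (-0.03, SE 0.10) of the same complex did not pass. Of the MPP10 complex, Imp3 (-0.55, SE 0.17, adjusted p 0.042) and Imp4 (-0.30, SE 0.09, adjusted p 0.032) passed, and Mphosph10 (-0.21, SE 0.11) did not. A second Imp3 probe set gave the same differences as the first, -0.57 in WT and -0.53 in KO. The Imp3 and Imp4 calls depended on the setting: with array medians subtracted their adjusted p values were 0.052 and 0.055, without a brightness limit that of Imp3 was 0.051, and both were lost without most single arrays. Imp3 kept its call without irradiated WT array 1, untreated KO array 3 or irradiated KO array 1, and lost it without any of the other 9 (adjusted p 0.056 to 0.10). Imp4 kept its call without those 3 arrays or untreated WT array 1, and lost it without any of the other 8 (0.055 to 0.083). Rrp9, which belongs to the U3 snoRNP, fell by 0.40 (adjusted p 0.027), and its call was lost without untreated WT array 2, irradiated WT arrays 1 or 3, untreated KO arrays 1 or 2, or irradiated KO arrays 2 or 3 (0.054 to 0.070). Whether the members of a subcomplex differ from each other was not tested.

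Noc4l and Nop14, partners in small subunit assembly, and Dcaf13 and Utp14a, a helicase cofactor, did not pass the test. Noc4l read 8.51, 8.62 and 8.29 in untreated WT, 8.02, 7.83 and 7.68 in irradiated WT, 8.64, 8.20 and 7.96 in untreated KO and 8.45, 7.65 and 7.87 in irradiated KO. The WT groups were apart and the KO groups overlapped, with differences of -0.63 and -0.28 (SE 0.21 each) and a limma adjusted p of 0.057 for the average. Nop14 differed by -0.17, Dcaf13 by -0.35 with the widest interval of these 17 genes (± 0.39), and Utp14a by -0.10.

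Utp20 was the 1 gene that rose. It encodes a very large scaffold protein of the processome. It read 8.38, 8.67 and 8.70 in untreated WT and 8.96, 9.17 and 9.23 in irradiated WT, and 8.91, 8.90 and 8.77 in untreated KO and 9.17, 9.24 and 9.41 in irradiated KO. Each irradiated array lay above each untreated array of either genotype. The difference was 0.54 in WT (SE 0.12, limma adjusted p 0.027) and 0.41 in KO (SE 0.12, adjusted p 0.072), and the average was 1.39-fold higher (adjusted p 0.0029).

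Both later small subunit factors had negative differences, and 1 passed. Rrp12, a HEAT-repeat protein needed for the export of subunits from the nucleus, read 7.89, 8.21 and 8.01 in untreated WT, 7.41, 7.15 and 7.33 in irradiated WT, 8.33, 8.03 and 8.05 in untreated KO and 7.71, 7.41 and 7.74 in irradiated KO. No irradiated array reached an untreated one, and Rrp12 was 1.55-fold lower (log2 -0.63, SE 0.10, limma adjusted p 0.00092). Bysl, bystin, differed by -0.50 (SE 0.17, adjusted p 0.059).

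All 11 large subunit factors had negative differences, with a median of -0.42, and 7 fell. Rrp1b, a nucleolar protein of large subunit precursors that is known to bring a protein phosphatase to the nucleolus, had the smallest p of the 47 genes. It read 8.36, 8.38 and 8.60 in untreated WT, 7.82, 7.68 and 7.75 in irradiated WT, 8.76, 8.35 and 8.36 in untreated KO and 7.87, 7.59 and 7.35 in irradiated KO. Its irradiated arrays all lay below its untreated arrays, and it was 1.73-fold lower (log2 -0.79, SE 0.11, limma adjusted p 0.00038). Nop2, an rRNA cytosine methyltransferase, read 10.22, 10.51 and 10.26 in untreated WT, 9.70, 9.53 and 9.63 in irradiated WT, 10.53, 10.22 and 9.96 in untreated KO and 10.02, 9.51 and 9.83 in irradiated KO. Its WT groups were apart and its KO groups overlapped by 1 array, and it was 1.5-fold lower on average (log2 -0.58, SE 0.12, adjusted p 0.0048).

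Noc2l and Noc3l encode partners in the transport of large subunit precursors. Noc2l read 9.72, 9.94 and 9.86 in untreated WT, 9.33, 9.55 and 9.31 in irradiated WT, 10.18, 10.03 and 9.67 in untreated KO and 9.49, 9.20 and 9.48 in irradiated KO. Noc3l read 7.79, 7.96 and 7.84, then 7.37, 7.40 and 7.31 in WT, and 8.17, 7.88 and 7.57, then 7.56, 7.46 and 7.60 in KO. The Noc2l groups were apart in both genotypes (average -0.50, SE 0.10, limma adjusted p 0.0053). The Noc3l groups were apart in WT and overlapped in KO (average -0.42, SE 0.10, adjusted p 0.011).

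Bop1, Wdr12 and Pes1 form the PeBoW complex, which is needed for cutting the RNA of the large subunit. Bop1 read 9.71, 9.93 and 9.90 in untreated WT, 9.41, 9.29 and 9.41 in irradiated WT, 10.05, 9.76 and 9.68 in untreated KO and 9.64, 9.57 and 9.47 in irradiated KO. Its irradiated arrays all lay below its untreated arrays, and it fell by 0.37 on the log2 scale (SE 0.08, limma adjusted p 0.010). Wdr12 fell by 0.49 (SE 0.12, adjusted p 0.016), and Pes1 differed by -0.21 and did not pass (SE 0.10, adjusted p 0.20). Nop16 fell by 0.43 (SE 0.10, adjusted p 0.011). Nip7 (-0.29), the methyltransferase Ftsj3 (-0.19) and the GTPase Gtpbp4 (-0.19) did not pass.

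Within each genotype fewer genes were called. In WT, 8 of 47 genes fell (17.0%, where 2.7% of all genes tested fell) and Utp20 rose (2.13% of all genes rose, and 4.83% were called in either direction). With array medians subtracted 6 fell and 1 rose in WT, where 2.26% of all genes fell and 2.72% rose. In KO, 7 fell (14.9%, where 3.2% of all genes fell) and none rose (2.74% of all genes rose and 5.94% were called, and with cyclic loess 1 of the 47 rose). At an unadjusted p under 0.05 there were 31 of the 47 genes in WT and 25 in KO, where 19.8% and 19.9% of all genes tested had such a p. The median differences were -0.41 in WT and -0.32 in KO, against 0.00 and -0.02 over all genes tested. The irradiated and untreated arrays did not overlap for 32 genes that were lower in WT (13.3% of genes tested) and for 17 that were lower in KO (13.2%). Utp20 was the 1 gene that was higher without overlap, in both WT (11.4% of genes tested) and KO (10.2%). The 2 genotypes' contrasts share no arrays, and 42 of the 47 genes had a negative difference in both. Over all 15348 genes tested, 7563 differences were negative in WT and 8334 in KO, and those negative in both were not counted. The 47 genes also varied together between arrays of the same group, so the 42 are not separate agreements.

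The WT genes were Dkc1 (-0.96), Rrp12 (-0.74), Nop2 (-0.71), Rrp1b (-0.69), Gnl3 (-0.60), Wdr43 (-0.58), Bop1 (-0.47) and Nop56 (-0.44). The KO genes were Rrp1b (-0.88), Polr1b (-0.84), Gnl3 (-0.60), Noc2l (-0.56), Rrp12 (-0.52), Nop56 (-0.51) and Wdr43 (-0.50). Gnl3, Nop56, Rrp12, Rrp1b and Wdr43 were in both lists, 5 of 8 and 5 of 7. The same overlap over all genes tested was not counted. With the mean of its probe sets, Nop56 passed in neither genotype (limma adjusted p 0.15 in WT and 0.063 in KO). A gene in 1 list only, such as Dkc1 or Polr1b, is not shown to differ between genotypes, since its interaction did not pass.

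These counts depended on single arrays. With the replicate number as a block in each genotype, pairing the WT arrays, the WT count of 9 became 15, made of 14 lower and 1 higher, where 4.68% and 3.32% of all genes tested were lower and higher. It was 5 without untreated WT array 1, 1 each without untreated WT arrays 2 or 3 or irradiated WT array 3, and 4 each without irradiated WT arrays 1 or 2. Calls over all genes tested moved as well. Those lower in WT went from 2.7% to 0.899%, 0.958% and 1.07% without untreated WT arrays 2 and 3 and irradiated WT array 3. They were 3.1% without untreated WT array 1, and 1.95% and 2.07% without irradiated WT arrays 1 and 2. Rrp12 alone kept its WT call in every setting. Leaving out 1 KO array, which changes only the shared spread, ended the calls of Nop56 (without any KO array but irradiated 1, up to 0.068), Gnl3 (0.056 without untreated 2) and Bop1 (0.058 without untreated 2 and 0.053 without irradiated 2). Leaving out 1 WT array ended the other WT calls at adjusted p values from 0.051 (Wdr43, without irradiated array 1) to 0.18 (Nop56, without untreated array 3). The KO count of 7 was 4 without untreated WT array 3, 1 each without untreated KO arrays 1 or 2 or irradiated KO arrays 2 or 3, and 16 without irradiated KO array 1. Over all genes tested 3.2% were lower in KO, against 5.88% without irradiated KO array 1 and 2.63% without untreated WT array 3. The share was 1.37% and 1.07% without untreated KO arrays 1 and 2, and 1.39% and 1.64% without irradiated KO arrays 2 and 3. Rrp1b alone kept its KO call in every setting, and the others were lost at adjusted p values from 0.066 (Rrp12, without irradiated KO array 3) to 0.16 (Rrp12, without irradiated KO array 2) when those 4 KO arrays were left out in turn. Rrp12 was also lost without untreated KO array 3 (0.073), untreated WT array 3 (0.062) or irradiated WT array 3 (0.057), and Wdr43 and Noc2l without untreated WT array 2 (0.057 and 0.052) or 3 (0.054 and 0.056). With only the 6 KO arrays in the fit, 1 gene was called. Scaling also ended calls close to the threshold: with array medians subtracted these were Nop56 (0.065) and Bop1 (0.064) in WT and Wdr43 (0.056) and Rrp12 (0.063) in KO, and under cyclic loess Bop1 in WT (0.058) and Rrp12 in KO (0.073).

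**Figure D4:**
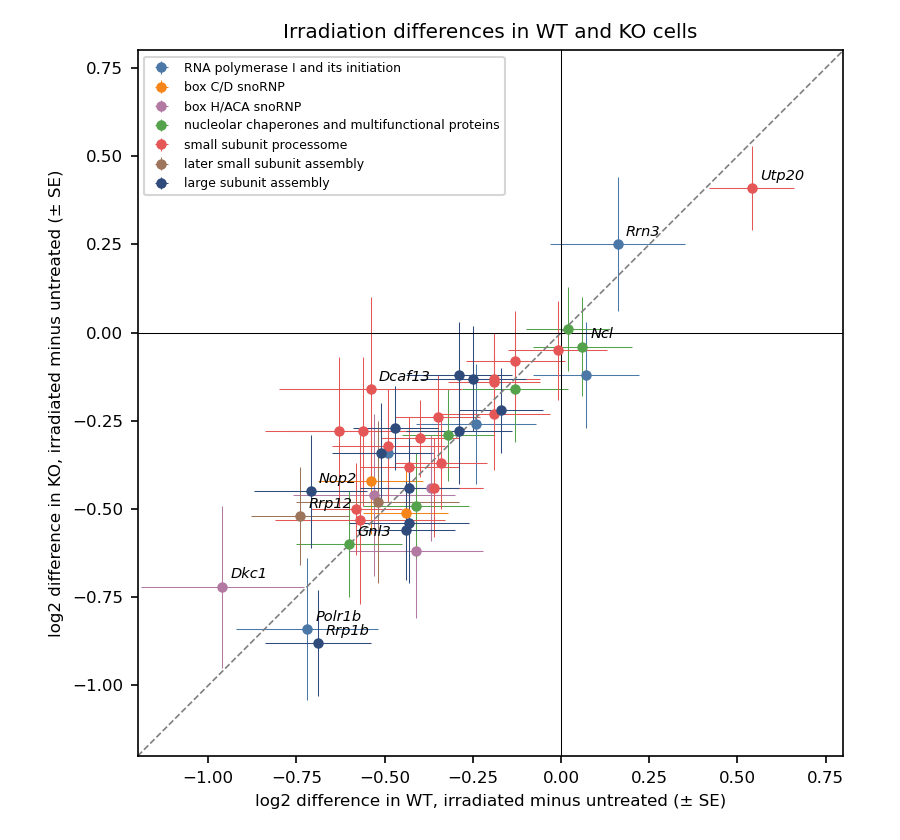
Irradiation difference of each gene in WT (x axis) and in KO (y axis), both log2 with ± 1 SE, coloured by role, with the line of equal differences dashed. Most points lie at the lower left, with negative differences in both genotypes, and Utp20 lies at the upper right (0.54 and 0.41).

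Genotype itself moved none of the 47 genes past the threshold. In limma, 0 were called between KO and WT in untreated cells, 0 in irradiated cells and 0 in the interaction, in each of the settings tried. The untreated groups did not overlap for 0 of the 47 genes lower in KO and 1 higher (3.55% and 4.4% of all genes tested), and the irradiated groups for 0 lower and 3 higher, Heatr1, Bop1 and Noc3l (3.83% and 2.57%). Among all genes tested, 0.00652% were called in each genotype comparison, which is 1 gene, Zc3hc1, and 0% in the interaction. At an unadjusted p under 0.05 there were 1, 2 and 0 of the 47 genes, where all genes tested gave 330, 471 and 235 (2.15%, 3.07% and 1.53%). The medians were 0.03, 0.06 and 0.04. The 95% confidence interval had a median half-width of 0.32 for a genotype difference and 0.45 for the interaction.

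The genes with the smallest p in these comparisons were as follows. In untreated cells Utp20 was 0.28 higher in KO (SE 0.12, unadjusted p 0.044, limma adjusted p 1.00) and Heatr1 0.18 higher (unadjusted p 0.12). In irradiated cells Heatr1 was 0.28 higher in KO (unadjusted p 0.023) and Rrp12 0.32 higher (0.035). For Heatr1 the 3 irradiated KO arrays, at 8.95 to 9.06, all lay above the 3 irradiated WT arrays, at 8.71 to 8.76. For the interaction the smallest p values were those of Bop1 (0.20, unadjusted p 0.25) and Noc4l (0.35, unadjusted p 0.26).

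Other genes of the pathway also fell more often than they rose. Of 129 other ribosome biogenesis genes tested, out of 138 listed, 44 fell and 1 rose in the average contrast, with a median of -0.24 (limma, the same test as above). The share that fell was 34.1%, where 9.6% of all genes tested fell and 6.9% rose. In WT 8 fell (6.2%, against 2.7% of all genes tested) and 0 rose, and in KO 10 fell (7.75%, against 3.2%) and 1 rose. In WT 46 had an unadjusted p under 0.05 (35.7%, against 19.8% of all genes tested). The average count of 44 was 22 and 27 without untreated WT arrays 2 and 3, 23 without irradiated WT array 3, 21 and 24 without untreated KO arrays 1 and 2, and 22 and 26 without irradiated KO arrays 2 and 3. In those fits 6.92% to 7.54% of all genes tested fell. The count was 32 with array medians subtracted (7.78% of all genes), 33 under cyclic loess (8.24%) and 58 without irradiated KO array 1 (13.3%). The genes with the smallest p were Exosc5 (-0.75) and Exosc8 (-0.69) of the RNA exosome, which trims precursor RNA, Nsun5 (-0.55), an rRNA methyltransferase, Dimt1 (-0.69), a dimethyltransferase of the small subunit RNA, and Ppan (-1.21), a large subunit factor. Riok3, a kinase of late small subunit assembly, rose by 0.51. By role, 9 of 19 exosome and RNase MRP genes fell (47.4%), 4 of 10 snoRNP assembly genes (40%) and 3 of 11 further polymerase I genes (27.3%). Of further large subunit genes 18 of 48 fell (37.5%), and of further small subunit genes 10 of 41 (24.4%), with Riok3 as the exception.

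The genes for the ribosome's own proteins were a list of their own. Of 58 cytoplasmic ribosomal protein genes tested, out of 80 listed, 4 fell (Rpl37, Rplp2, Rpl3 and Rpl11) and 1 rose (Rps27l, a p53-inducible relative of Rps27), with a median of -0.07. Of the 58 differences, 47 were negative and 11 positive. The share that fell, 6.9%, was near the 9.6% of all genes tested. With the mean of its probe sets, Rpl3 differed by -0.10 and was not called (limma adjusted p 0.42). Each of these calls was lost without at least 1 array. No ribosomal protein gene fell without irradiated WT array 3, untreated KO arrays 1 or 2, or irradiated KO array 2, 1 fell without untreated WT array 2 or irradiated KO array 3, 2 fell without the WT array 1 of either dose, with array medians subtracted or under cyclic loess, and 6 fell without irradiated KO array 1. Rps27l was lost without untreated WT array 3 (adjusted p 0.052). Their mean level was 10.01 to 10.08 in untreated WT, 9.91 to 9.97 in irradiated WT, 10.00 to 10.04 in untreated KO and 9.80 to 10.09 in irradiated KO. The difference between this list and the biogenesis factors was not tested.

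**Figure D5:**
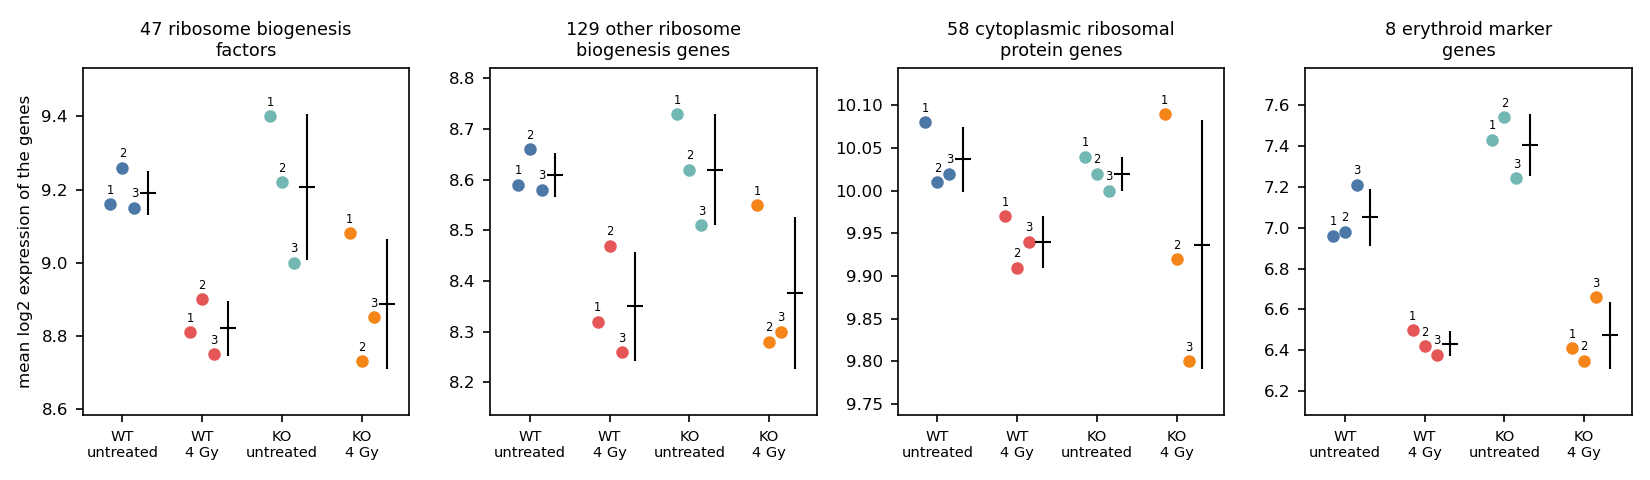
Mean log2 level of 4 gene lists in each array (points numbered by replicate, with the mean and SD of 3 arrays). The biogenesis factors and the other biogenesis genes are lower after irradiation in WT and shift with overlap in KO. The ribosomal protein genes lie at 10.01 to 10.08 in untreated and 9.91 to 9.97 in irradiated WT, and overlap in KO. The mean of the erythroid markers is lower in every irradiated array than in any untreated array.

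Of 10 genes of the MYC network, 3 fell and 1 rose in the average contrast. Myc read 10.90, 11.19 and 11.06 in untreated WT, 10.62, 9.87 and 9.62 in irradiated WT, 11.36, 10.85 and 10.89 in untreated KO and 10.75, 9.44 and 9.04 in irradiated KO. The groups did not overlap within a genotype, but irradiated Myc varied widely, with an SD of 0.52 in WT and 0.90 in KO, and both irradiated arrays numbered 1 were the highest. Myc fell by 1.15 on the log2 scale (SE 0.26, limma adjusted p 0.010), with an adjusted p of 0.14 in WT and 0.061 in KO. Mycn, its relative, fell by 0.80 (SE 0.15, adjusted p 0.0030), and Mxd1, an antagonist of MYC, rose by 0.52 (adjusted p 0.0024). The calls of these 3 genes held in every setting tried. Mxd3, of the same family as Mxd1, fell by 0.31, a call lost with array medians subtracted (adjusted p 0.093) and without 8 of the 12 arrays in turn (0.051 to 0.086), all but untreated WT 1, untreated KO 1 and irradiated KO 2 and 3. The part of Myc or Mycn in the fall of the biogenesis factors was not tested.

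Of the genes that link ribosome assembly to p53, Mdm2, the ubiquitin ligase that restrains p53, rose by 1.63 and Cdkn1a, the cell cycle inhibitor p21, by 1.29. Rpl11, one of the ribosomal proteins that bind MDM2, fell by 0.29 (limma adjusted p 0.046), a call lost with array medians subtracted (0.080), under cyclic loess (0.051), without a brightness limit (0.054) and without any array but untreated WT 3, untreated KO 3 and irradiated KO 1 (0.063 to 0.11), and Rpl5, another, differed by 0.15 (adjusted p 0.42). Trp53 was not analysed here.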

How the data were processed

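Per the submitters' processing notes, the authors' deposited log2 values were made with oligo and RMA. No source used here gives their versions. The array table has 41345 probe sets, of which 23521 have 1 gene symbol in the platform annotation, 1814 several and 16010 none, and 23328 of the first kind had a gene ID found in RefSeq's table. Each gene was read from its brightest single-symbol probe set. Genes above 5.29 (the 40th percentile) in at least 3 arrays were tested. Array medians were 5.74 to 5.85, and 3 arrays a group limit the precision. The groups were fitted together with limma 3.58.1 in R 4.3.3, and p-values were adjusted over 15348 genes at 0.05. The fit was tested on simulated data.

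Genes with their values in every array are the 16 with the smallest p in the average irradiation contrast and the 2 with the smallest p of each genotype comparison. Npm1 was added after its values were seen. Up to 5 genes a direction are named from other lists. The members and lists were chosen with earlier results of these data known. Replicate numbers come from the titles. Same-numbered untreated and irradiated WT arrays deviated together (r 0.49, 0.48 and 0.42), so the block fit is given for WT. Alternatives were scaling, brightness limit, probe set rule, variance prior, arrays fitted, replicate block and each array left out.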

Additional observations from a re-analysis of the deposited data

How the results depend on the processing

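No member changed direction past a threshold under any alternative tried. The average irradiation count of 27 ranged from 21 to 32 with each array left out, was 24 with array medians subtracted and 26 under cyclic loess, and 20 of the 27 calls held in all 20 settings. Of the 20 genes not called, 6 were called in some setting. Subtracting array medians moved the share of higher genes among all calls from 41.8% to 54.4% in the average contrast, from 44.1% to 54.6% in WT and from 46.1% to 53.9% in KO. The WT count of 9 was 14 with the replicate block and 15 with the replicate block within genotype, and 1 to 12 with each array left out. The KO count of 7 was 12 and 13 with those blocks, 1 with only the KO arrays fitted, and 1 to 16 with each array left out. Calls over all genes tested also ranged with each array left out. They were 1859 to 3414 in the average (2532 in the main fit), 314 to 1040 in WT (742) and 392 to 1573 in KO (911). Of the same-numbered KO arrays those numbered 1 deviated together (r 0.47), and those numbered 2 and 3 did not (-0.24 and -0.12). Same-numbered WT and KO arrays correlated at 0.10 to 0.23 untreated, and at -0.29 to 0.34 irradiated. The labels do not say whether numbers pair samples. Untreated KO array 2 correlated best with irradiated KO array 3 (0.44), and untreated KO array 3 with irradiated KO array 2 (0.52). The KO counts of 12 and 13 thus rest in part, for numbers 2 and 3, on pairs that these correlations go against. That match is a hint from the data and not in the labels, and no fit used it. The cause of these changes was not tested. The genotype comparisons gave 0 in every setting. Of arrays with raised B cell markers, leaving out untreated KO array 2 gave 21 and irradiated KO array 3 gave 23 in the average. With 3 arrays a side, the smallest p of an exact permutation test is 0.10.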

Other observations

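The biogenesis factors also varied together between arrays of the same group. After each group's mean was subtracted, a member's correlation with the mean of the others over the 12 arrays had a median of 0.78, and 41 of 47 (87.2%) were over 0.5, against 20.5% of the other genes tested, whose median was 0.04. Mphosph10 was highest at 0.98. Polr1a (-0.10), Utp20 (0.07) and Ncl (0.24) were the lowest. These values are a description with no p, and the arrays share chip and scaling.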
